A study of Mus musculus with 15 samples.

Results

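Type I interferon-stimulated genes are the genes that a cell turns on when interferon-alpha or interferon-beta binds its receptor. A set of 35 such genes was followed here in mouse regulatory T (Treg) cells, out of 30949 genes with a value in every library. The members were given as a list of gene symbols and found in the tables through their Ensembl identifiers and the GENCODE vM21 annotation, and all 35 were found. All 35 also passed the filter of at least 1 TPM in at least 2 libraries, as did 29989 genes in all. No measured value entered that list, although earlier results of these data were known when it was drawn up.

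The cells were taken from lymph nodes and spleen; the mice were female C57BL/6 of the genotype Foxp3YFP-Cre/+/Dock8flox/flox, whose age is not given in the sources used here. Every mouse carried the floxed Dock8 alleles, so the floxed alleles were common to all groups. Cre sits in the Foxp3 gene, on 1 of the X chromosomes, and is active in Treg cells that use that chromosome. Sorted CD25+CD39+ cells that were YFP+ and therefore Cre-positive are labelled KO, and YFP- cells of the same kind of mouse are labelled WT. Culture lasted 16 h, either in plain medium or with 1 bead per cell that carried antibodies to CD3 and CD28, and Smart-Seq2 libraries were made from 4 WT and 6 KO samples in medium and from 3 WT and 2 KO samples with beads. Libraries carry the number in their titles, and 1 WT and 1 KO library in medium have none. YFP and Cre mark the KO cells only and cannot be told apart from the loss of DOCK8. The samples are described as independent, with no statement that each came from its own mouse, so the spread behind each p-value is that between samples and may be technical.

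As background, type I interferons bind the receptor IFNAR1 and IFNAR2, whose kinases JAK1 and TYK2 switch on the transcription factor complex ISGF3, which includes STAT2 and IRF9 and binds interferon-stimulated response elements (ISRE) in the promoters of its target genes. The products sense viral RNA, block translation, degrade RNA, or hold virus particles at the membrane, and some, such as USP18 and SOCS1, turn the signal down. In T cells, interferon and the signals of the T cell receptor and of cytokines act on some of these genes together, and interferon-gamma has targets of its own, such as the guanylate-binding proteins.

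Promoter sequence was available for 24 of the 35 members in a RefSeq table of windows from 250 bases before to 50 bases after each start (GRCm38.p6). The ISRE core searched was GAAA, any 2 bases (NN) and GAAA again, on both strands. It was found in 12 of these 24 members (50%), beside 3.993% of 27025 genes with a window of the same length. A gamma-activated site, an element of interferon-gamma targets, was searched as TTCNNNGAA, also on both strands, and was found in 8 of 24 (33.3%), beside 9.554% of genes. In Bst2 a copy of that element overlapped the ISRE cores. A match describes letters in a window and is not evidence of binding. The upstream stretches of 4 members are shown because their genes moved in different ways with beads, and capitals mark the ISRE core, which shows TTTC in place of GAAA where it lies on the other strand. The stretches are 60 bases each, upstream of the RefSeq start (for Trim30a, of 1 of its starts) and on the strand of the gene, and lie at chr8:71537568-71537627 (Bst2, minus strand), chr7:104465195-104465254 (Trim30a, minus strand), chr19:34583348-34583407 (Ifit3, plus strand) and chr4:156200862-156200921 (Isg15, minus strand).
Bst2: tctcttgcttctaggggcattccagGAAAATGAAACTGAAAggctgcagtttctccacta
Trim30a: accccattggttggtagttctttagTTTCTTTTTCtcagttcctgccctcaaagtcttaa
Ifit3: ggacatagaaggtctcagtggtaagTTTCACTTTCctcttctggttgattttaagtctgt
Isg15: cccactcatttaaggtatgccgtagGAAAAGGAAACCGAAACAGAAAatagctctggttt

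Bst2 held 2 overlapping cores and Isg15 held 3, while the stretches of Trim30a and Ifit3 held 1 each. With beads Bst2 rose in both genotypes, Trim30a fell in WT cells, Ifit3 fell in KO cells and Isg15 passed no test. Over the 12 members with a core the median bead response of WT cells was -0.70 on the log2 scale, with 8 members lower, and over the 12 members with a window and no core it was -0.63, with 9 lower. In WT cells most members were thus lower both with and without a core in the window, and so were most genes. Over all genes tested the median was -0.44, with 21243 of 29989 lower. The difference between members with and without a core was not tested. A core outside the window would not be seen, and members without a window are in neither group.

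Values were deposited as TPM, a unit scaled to gene length and to the library's total, which can be compared between genes but keeps no read depth. Differences below are on the log2(TPM + 1) scale with the standard error (SE) from limma, which was fitted to all 29989 genes and 15 libraries at once. Each gene thus has 1 estimate of spread, shared by all groups. Libraries correlated at 0.766 to 0.830 within WT medium, 0.706 to 0.784 within KO medium, 0.895 to 0.903 within WT bead and 0.874 within KO bead groups. The SE of a difference between the bead groups therefore includes the wider spread of the medium libraries. A gene was called when its Benjamini-Hochberg adjusted p over all genes was under 0.05, and ± beside TPM is the SD between libraries. The libraries differed in quality along with the groups. Repeat sequence annotated as 6 predicted genes took 14.1 to 32.9% of TPM in WT medium, 23.7 to 45.3% in KO medium, 7.37 to 13.0% in WT bead and 11.4 to 17.3% in KO bead libraries. The 1108 olfactory receptor, vomeronasal receptor, keratin-associated and beta-defensin genes, which T cells do not use, averaged 0.997 to 2.07, 1.41 to 2.25, 0.586 to 0.692 and 0.894 to 0.934 TPM in the same order, so bead libraries lay below medium libraries in both genotypes. In medium Dock8 averaged 14.6 ± 5.35 TPM in WT cells, against 8.58 ± 1.85 TPM in KO cells (n = 4 and 6, exact two-sided permutation p = 0.0190), and at 9.25 ± 0.763 and 6.86 ± 1.47 TPM with beads (n = 3 and 2, p = 0.1 by the same exact test, the smallest possible). The difference in medium had an exact p of 0.0714 without WT medium library 3, 0.129 when scaled to abundant genes and 0.0810 after quantile normalization. Treg and T cell markers were above 0 in every library (8 of 8), with sums of 541 to 900.2, 375 to 565, 960.3 to 997 and 942 to 944 TPM, again in that order. Foxp3 itself averaged 43.2, 13.3, 98.7 and 42.5 TPM. Markers of CD8 T and NK cells summed to 31.6 to 67.8, 29.3 to 55.6, 15.6 to 21.6 and 20.4 to 37.0 TPM, those of B cells to 10.4 to 20.7, 9.68 to 32.1, 4.22 to 16.1 and 10.2 to 12.5 TPM, and those of plasmacytoid dendritic cells, a main source of type I interferon, to 23.8 to 37.8, 21.9 to 30.5, 9.16 to 16.8 and 7.93 to 10.1 TPM. Myeloid markers summed to 32.4 to 73.4, 12.7 to 44.3, 59.8 to 104 and 58.2 to 74.8 TPM, nearly all of it Cst3, with Cd14 at 0 in 8 of the 15 libraries. With beads 3 of 8 Treg and T cell markers rose in each genotype (Foxp3, Il2ra and Ctla4). The shares of all genes called higher were 4.6% in WT and 5.95% in KO cells, and 6.63% and 2.15% were called lower. In medium 5 of 8 of these markers were lower in KO cells at an unadjusted p under 0.05, beside 8.89% of all genes. Of these 8 markers 0 were called by limma in medium. With beads 2 of 6 CD8 T and NK markers fell in WT cells (Cd8a and Klrb1c), 1 of 4 plasmacytoid dendritic cell markers fell in both genotypes (Tcf4), and Cst3 rose in KO cells (limma adjusted p = 0.0498). The part of these cells and of library quality in the results was not tested, except where a value is given.

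The members spanned a wide range of levels. Ly6e, a membrane protein that restricts some viruses, and Ifi27l2a, a small interferon-induced protein, had the highest means over the 15 libraries, at 488 and 251 TPM, and these 2 genes made up 41.6 to 71.1% of the summed TPM of the set. Ddx58, which encodes the RNA sensor RIG-I, followed at 137 TPM, and Bst2 and Ifi35 came next at 43.4 and 29.9 TPM. The spread of Bst2 across groups covered that of Ifi35, so these neighbours in the order changed places with the group. Of the 35 members 12 averaged under 5 TPM, among them Ifit1, Ifit3, Rsad2, Mx1, Mx2 and Oas2, which are widely used as readouts of interferon exposure. Against the 90th percentile of the unused genes in the same library, 11 members were higher in all 15 libraries, 16 in 8 to 14 libraries, 7 in 1 to 7 libraries and Cmpk2, a kinase of mitochondrial nucleotides, in none. The summed level of the set was 1532 ± 324 TPM in WT medium (n = 4), 1021 ± 280.3 in KO medium (n = 6), 1188 ± 40.8 in WT bead (n = 3) and 1067 ± 16.3 TPM in KO bead libraries (n = 2). Scaled to abundant genes, the sums were 1395 ± 149, 1201 ± 128, 1088 ± 36.2 and 911 ± 15.7 TPM in the same order, so that the gap between the genotypes in medium narrowed and KO medium moved from the lowest mean to above WT bead libraries. As these are bulk samples, fewer cells that express a gene and less RNA per cell cannot be told apart.

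**Figure D1:**
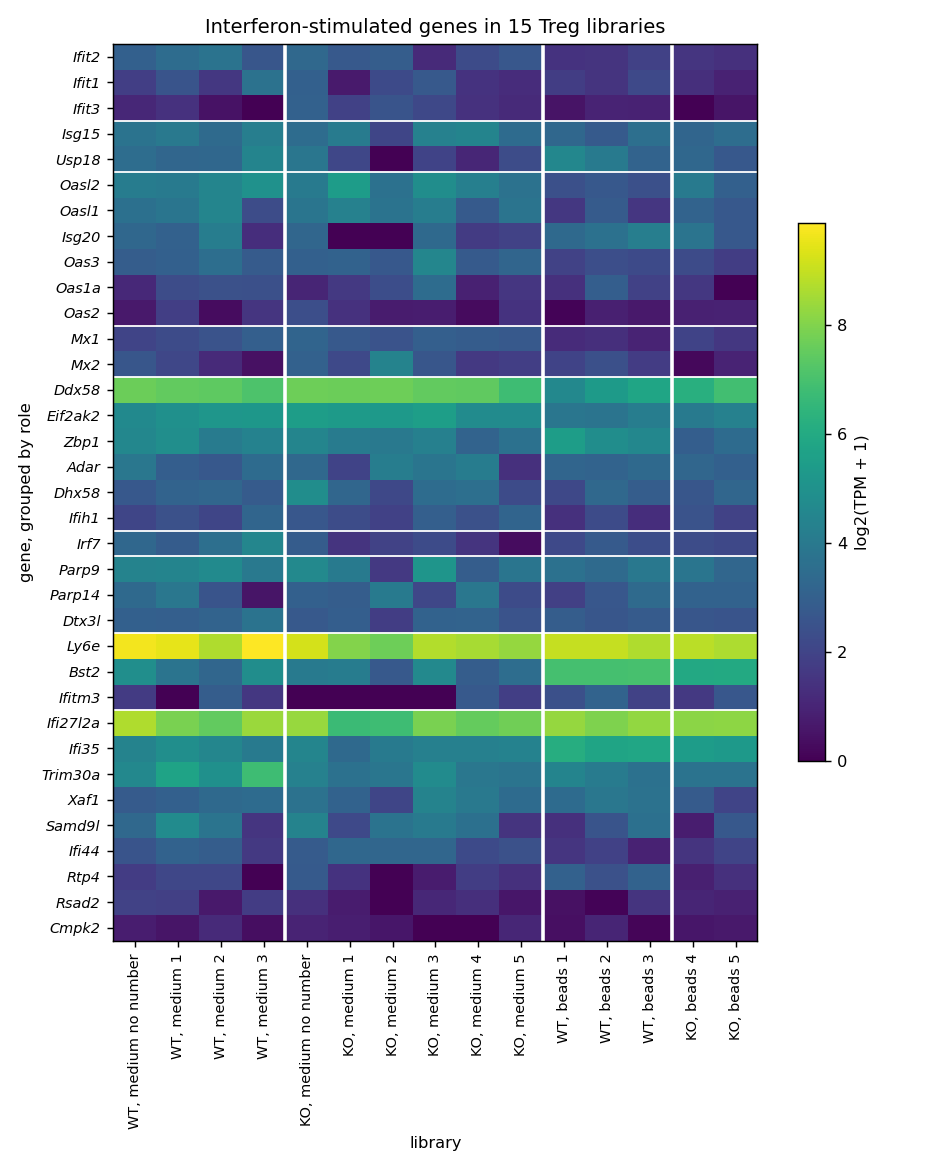
Colour gives log2(TPM + 1) of the 35 genes (rows, grouped by role) in the 15 libraries (columns, in the order WT medium, KO medium, WT beads, KO beads, separated by white lines). Ly6e, Ifi27l2a and Ddx58 have the highest means, at 488, 251 and 137 TPM, Bst2 and Ifi35 are brighter in the bead libraries, and Cmpk2 is dark throughout.

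Beads moved individual members in opposite directions. In WT cells 2 of 35 members rose and 6 fell, where 4.6% of all genes tested were called higher and 6.63% lower. The groups did not overlap for 3 members that were higher and 10 that were lower, beside 8.61% and 20.9% of all genes. The members' median bead response was -0.54 in WT cells, beside -0.44 over all genes. In KO cells 2 members rose and 1 fell, where 5.95% of all genes were called higher and 2.15% lower, and the groups did not overlap for 2 members higher and 6 lower, beside 11.2% and 11.5%. The median there was -0.29 beside -0.23 over all genes. Among genes that averaged 5 TPM or more in any group, the median in KO cells was -0.30 over 30 members beside 0.09 over 14262 genes, and in WT cells it was -0.57 beside -0.39. Scaling each library to 809 abundant genes moved the median over all genes tested from -0.44 to -0.43 in WT cells. In KO cells it moved from -0.23 to -0.47. Quantile normalization gave -0.05 in WT and -0.09 in KO cells, and rescaling without the repeat-derived genes gave -0.61 and -0.41. All genes called with beads were 1378 higher and 1988 lower in WT cells, against 1201 and 896 after quantile normalization and 1124 and 3148 after rescaling. In KO cells they were 1785 and 646, against 1256 and 1876 when scaled to abundant genes, 1361 and 876 after quantile normalization and 1375 and 1583 after rescaling, and the members called in KO cells were then 1 higher and 7 lower, 1 and 2, and 1 and 5, in the same order. Without 1 library the members called in WT cells were 5 (without WT medium library 1 or 2, or WT bead library 2), 4 (without WT bead library 1) and 3 (without WT bead library 3), and in KO cells they were 0 without KO bead library 4 or 5. With the mean level of the unused genes as a covariate, a fit added after the data were seen, 0 of 35 members were called in either genotype, beside 227 of all genes in WT and 630 in KO cells. The level of those genes does not overlap between bead and medium libraries, so the fit also removes differences that go with beads.

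The membrane proteins held the largest rise. Bst2, which encodes tetherin, a protein that holds budding virus particles at the cell surface, was at 27.9, 12.9, 8.64 and 27.8 TPM in WT medium libraries and between 5.81 and 23.6 TPM, with a median of 13.1, in the 6 KO medium libraries. With beads, WT libraries read 122, 123 and 127 TPM and KO libraries 60.2 and 62.8 TPM. Every bead library was above every medium library, and with beads every WT library was above both KO libraries. The rise was 2.77 in WT (SE 0.47, limma adjusted p = 0.00218) and 2.30 in KO cells (SE 0.50, limma adjusted p = 0.0105). In WT cells the call held in 19 of 20 alternative fits, with the covariate as the exception (2.29, limma adjusted p = 0.142). In KO cells it was lost without KO bead library 4 or 5 (limma adjusted p = 0.108 and 0.138), which leaves 1 bead library, with the covariate (0.147) and without the 4 KO medium libraries richest in repeats (0.111). The difference of -1.001 between KO and WT cells with beads (SE 0.56, from the spread shared with medium libraries) was not called (limma adjusted p = 1.00). With only the groups compared it was not called either (limma adjusted p = 0.211). The difference between the responses, -0.48 (SE 0.69), was not called (limma adjusted p = 0.999).

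Ly6e was the member with the highest level. It was at 816, 721, 412 and 928 TPM in WT medium libraries and between 204 and 596 TPM, with a median of 346, in KO medium libraries. The WT bead libraries gave 508, 503 and 411 TPM and the KO bead libraries 455 and 399 TPM. In medium 3 of 4 WT libraries lay above every KO library, while WT library 2 lay within the KO range, and with beads the genotypes differed by less than the spread. The difference of -1.01 in medium (SE 0.30) was not called (limma adjusted p = 0.220), nor was it in any of 23 alternative fits, where it was -0.63 when scaled to abundant genes and -0.46 without the 4 KO libraries richest in repeats. Ifitm3, which blocks viral entry from endosomes, was listed at 0 in 5 libraries, and its other values were at most 7.83 TPM.

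Of the sensors and RNA-binding enzymes, Ddx58 and Eif2ak2 fell with beads in WT cells. Ddx58 was at 199, 179.6, 169 and 138 TPM in WT medium libraries and between 111 and 203 TPM, with a median of 189.7, in KO medium libraries. In bead cultures WT cells stood at 23.1, 40.3 and 54.4 TPM, and KO cells at 73.4 and 115 TPM. WT bead libraries lay below all others, and of the KO bead libraries 1 lay below the KO medium range and 1 within it. The fall was 2.17 in WT cells, a difference of -2.17 (SE 0.32, limma adjusted p = 0.000924), and the response of -0.92 in KO cells (SE 0.34) was not called (limma adjusted p = 0.119). Under the covariate the WT difference was -2.14 with a limma adjusted p of 0.0511, the 1 of 20 alternatives in which it was not called. With beads KO cells read Ddx58 higher than WT cells by 1.29 (SE 0.38), with no overlap of the libraries, yet this was not called (limma adjusted p = 1.00), and neither was the difference between the responses, 1.25 (SE 0.46, limma adjusted p = 0.999).

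Eif2ak2 encodes PKR, the kinase that stops translation when it binds double-stranded RNA. It was at 24.9, 30.3, 34.99 and 36.1 TPM in WT medium libraries and between 25.8 and 45.1 TPM, with a median of 39.7, in KO medium libraries. Bead-stimulated WT libraries held 13.6, 12.8 and 16.9 TPM, against 15.9 and 19.3 TPM for KO libraries. All 5 bead libraries were below all 10 medium libraries, and the genotypes overlapped in both conditions. The WT difference of -1.07 (SE 0.28) was called (limma adjusted p = 0.0247), and the KO difference of -0.99 (SE 0.30) was not (limma adjusted p = 0.0600). The WT call was lost without any 1 of WT medium libraries 1, 2 and 3 and WT bead libraries 1, 2 and 3 (limma adjusted p = 0.0523 to 0.09998). The KO difference was called when scaled to abundant genes (-1.47, limma adjusted p = 0.00664), after quantile normalization (-1.35, limma adjusted p = 0.00766) and in 5 further fits.

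Zbp1, a sensor of left-handed nucleic acids that can trigger necroptosis, was the member with the smallest p between the genotypes with beads. It was at 22.4, 28.1, 16.1 and 19.6 TPM in WT medium libraries, and in KO medium libraries between 7.89 and 21.5 TPM with a median of 15.5. After bead culture the WT values were 43.8, 27.5 and 22.6 TPM, and the KO values 6.63 and 10.0 TPM, so that both KO bead libraries lay below all WT libraries of either condition. The genotype difference with beads was -1.76 (SE 0.43, unadjusted p = 0.000940 by limma), which was not called over all genes (limma adjusted p = 1.00) nor in any of 18 alternative fits (-2.03 at the lowest, limma adjusted p from 0.0711). The bead response was 0.49 in WT and -0.75 in KO cells, and the difference between the responses, -1.24 (SE 0.53), was not called (limma adjusted p = 0.999).

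The other sensors were lower or flat. Ifih1, which encodes the RNA sensor MDA5, ranged from 1.46 to 8.26 TPM over all libraries, Dhx58, a regulator of both sensors, from 3.39 to 27.9 TPM, and Adar, which edits adenosine in double-stranded RNA, from 1.58 to 17.1 TPM. All 3 passed no test in any comparison. In KO cells the bead response was below 0 for all 6 genes of this role, beside 18039 of 29989 genes tested. Eif2ak2 was the lowest of the 6 at -0.99, and Adar was next to 0. Eif2ak2, Dhx58 and Adar share exon sequence with genes on the opposite strand, and Smart-Seq2 does not keep the strand, so reads of the partners cannot be told apart.

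**Figure D2:**
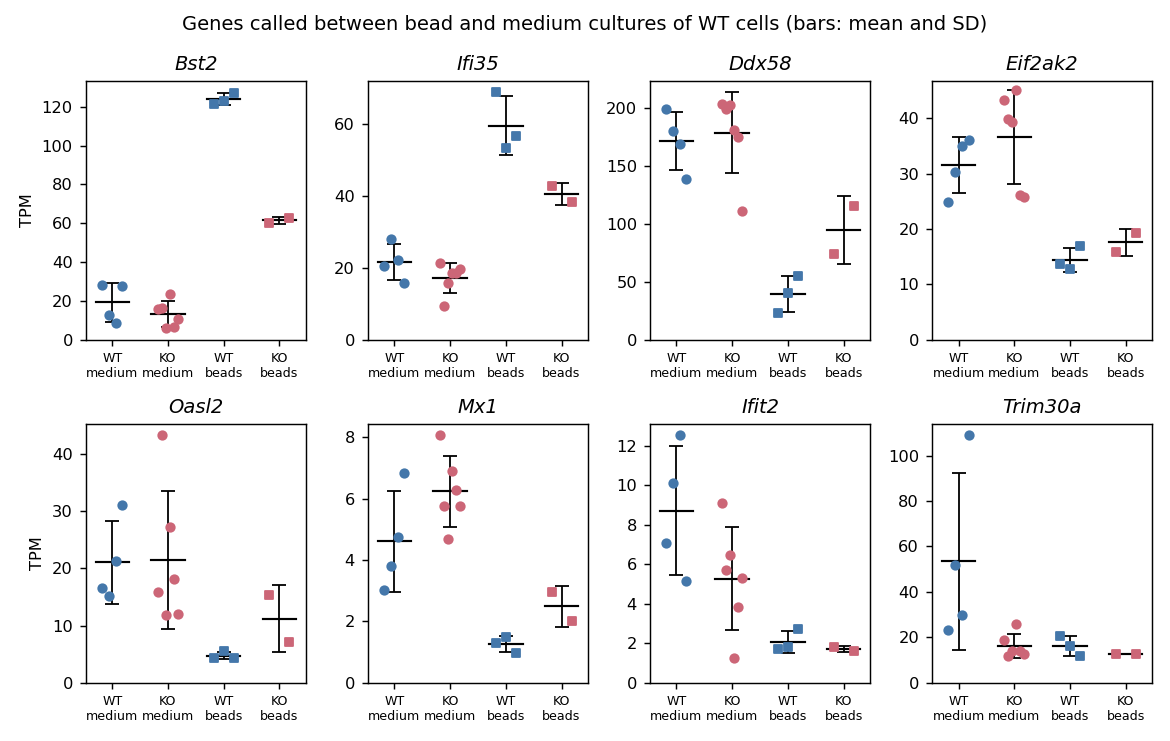
TPM of the 8 genes called between WT bead and WT medium cultures, 1 point per library (n = 4, 6, 3 and 2 from left to right), with the mean as a line and the SD as a bar. Bst2 and Ifi35 are higher in every bead library than in any medium library, and Eif2ak2 is lower in every bead library.

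The OAS proteins make a short RNA that activates RNase L. Oasl2, a relative that carries ubiquitin-like domains, was at 16.6, 15.1, 21.4 and 31.1 TPM in WT medium libraries and between 11.9 and 43.2 TPM, with a median of 17.0, in KO medium libraries. With beads, WT libraries read 4.37, 5.49 and 4.34 TPM and KO libraries 15.4 and 7.05 TPM. The WT bead libraries lay below every other library, whereas KO bead library 4 fell inside the KO medium range. The WT difference of -1.89 (SE 0.44) was called (limma adjusted p = 0.0117), and the call was lost without WT bead library 3 (-1.85, limma adjusted p = 0.0513) and with the covariate (-1.47, limma adjusted p = 0.319). The KO response of -0.82 (SE 0.47) was not called (limma adjusted p = 0.344), the genotype difference with beads was 1.01 (SE 0.52, limma adjusted p = 1.00), and the difference between the responses was 1.08 (SE 0.64, limma adjusted p = 0.999).

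Oas3 was at 6.60, 7.23, 10.7 and 6.20 TPM in WT medium libraries and between 5.59 and 21.8 TPM, with a median of 7.33, in KO medium libraries. The WT bead libraries gave 2.86, 4.23 and 3.65 TPM and the KO bead libraries 3.82 and 2.43 TPM. Every bead library lay below every medium library. The differences were -0.91 in WT (SE 0.41, limma adjusted p = 0.175) and -1.21 in KO cells (SE 0.44, limma adjusted p = 0.114), and the KO difference was called when scaled to abundant genes (-1.62, limma adjusted p = 0.0268), after rescaling without repeat-derived genes (-1.55, limma adjusted p = 0.0342) and with array weights (-1.17, limma adjusted p = 0.0390). Oasl1, which restrains translation of Irf7, ranged from 3.95 to 21.3 TPM in medium and from 1.94 to 7.83 TPM with beads, with a WT difference of -1.57 (SE 0.51) just outside the threshold (limma adjusted p = 0.0583). Oas1a, Oas2 and Isg20, an RNA exonuclease, passed no test, and Oas1a and Isg20 were listed at 0 in 1 and 2 libraries. Oas1a has a near-identical neighbour in Oas1g, so its reads may be shared between them.

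The IFIT proteins bind foreign RNA ends, and the genes of Ifit2, Ifit3 and Ifit1 lie in a row on chromosome 19, between 34550694 and 34650009 (GRCm38). Ifit2 was at 7.10, 10.1, 12.5 and 5.14 TPM in WT medium libraries and between 1.27 and 9.09 TPM, with a median of 5.51, in KO medium libraries. In bead cultures WT cells stood at 1.71, 1.81 and 2.70 TPM, and KO cells at 1.84 and 1.61 TPM. In WT cells the bead libraries lay below the medium libraries, and in KO cells the lowest medium library overlapped them. The WT difference was -1.61 (SE 0.46, limma adjusted p = 0.0353) and held in 10 of 20 alternative fits. It was lost without WT medium library 1 or 2 or without WT bead library 1, 2 or 3 (limma adjusted p = 0.0759 to 0.121), and when scaled to abundant genes (-1.60, limma adjusted p = 0.0629).

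Ifit3 was low in every group. It was at 1.13, 1.63, 0.392 and 0 TPM in WT medium libraries and between 1.27 and 7.35 TPM, with a median of 3.11, in KO medium libraries. Bead-stimulated WT libraries held 0.440, 0.973 and 0.916 TPM, against 0 and 0.463 TPM for KO libraries. Both KO bead libraries lay below all KO medium libraries, and the KO difference of -1.77 (SE 0.51) was called (limma adjusted p = 0.0464). It held in 8 of 20 alternative fits and was lost without either KO bead library (limma adjusted p = 0.190 and 0.358), without the unnumbered KO medium library (-1.57, limma adjusted p = 0.0584) and without KO medium library 1, 2 or 3 (limma adjusted p = 0.0638 to 0.0695). In medium, Ifit3 was the 1 member higher in KO cells at an unadjusted p under 0.05 (1.30, SE 0.41, limma adjusted p = 0.247). Only 2 of the 15 libraries placed Ifit3 above the 90th percentile of unused genes, and Ifit3 has a near-identical copy, Ifit3b. Ifit1 stayed between 0.635 and 11.998 TPM and passed no test.

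The Mx proteins are GTPases that trap viral nucleocapsids. Mx1 was at 3.03, 3.81, 4.76 and 6.84 TPM in WT medium libraries and between 4.69 and 8.07 TPM, with a median of 6.01, in KO medium libraries. After bead culture the WT values were 1.29, 1.49 and 0.983 TPM, and the KO values 2.97 and 2.02 TPM. All 5 bead libraries lay below the 10 medium libraries. The WT difference of -1.28 (SE 0.33) was called (limma adjusted p = 0.0228) and held in 10 of 20 alternative fits, and it was lost without WT medium library 2 or 3 or without WT bead library 1, 2 or 3 (limma adjusted p = 0.0545 to 0.0973). The KO difference of -1.05 (SE 0.36) was not called (limma adjusted p = 0.0894) but was when scaled to abundant genes (-1.44, limma adjusted p = 0.0157). C57BL/6 mice carry a known deletion in Mx1, so its transcript does not make the full protein in this strain.

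Mx2 was at 5.26, 3.31, 1.24 and 0.374 TPM in WT medium libraries and between 2.09 and 20.02 TPM, with a median of 4.34, in KO medium libraries. With beads, WT libraries read 2.96, 4.37 and 2.36 TPM and KO libraries 0.172 and 0.966 TPM. The KO bead libraries lay below all WT bead and all KO medium libraries. The KO bead response of -2.02 (SE 0.68) was not called (limma adjusted p = 0.0879) and was called when scaled to abundant genes (-2.30, limma adjusted p = 0.0458) and with array weights (-1.89, limma adjusted p = 0.0328). The difference between the responses, -2.47 (SE 0.94), was not called (limma adjusted p = 0.999), and Mx2 was above the 90th percentile of unused genes in 6 of 15 libraries. GENCODE vM21 annotates Mx2 as a polymorphic pseudogene, so a full protein cannot be assumed for it either.

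**Figure D3:**
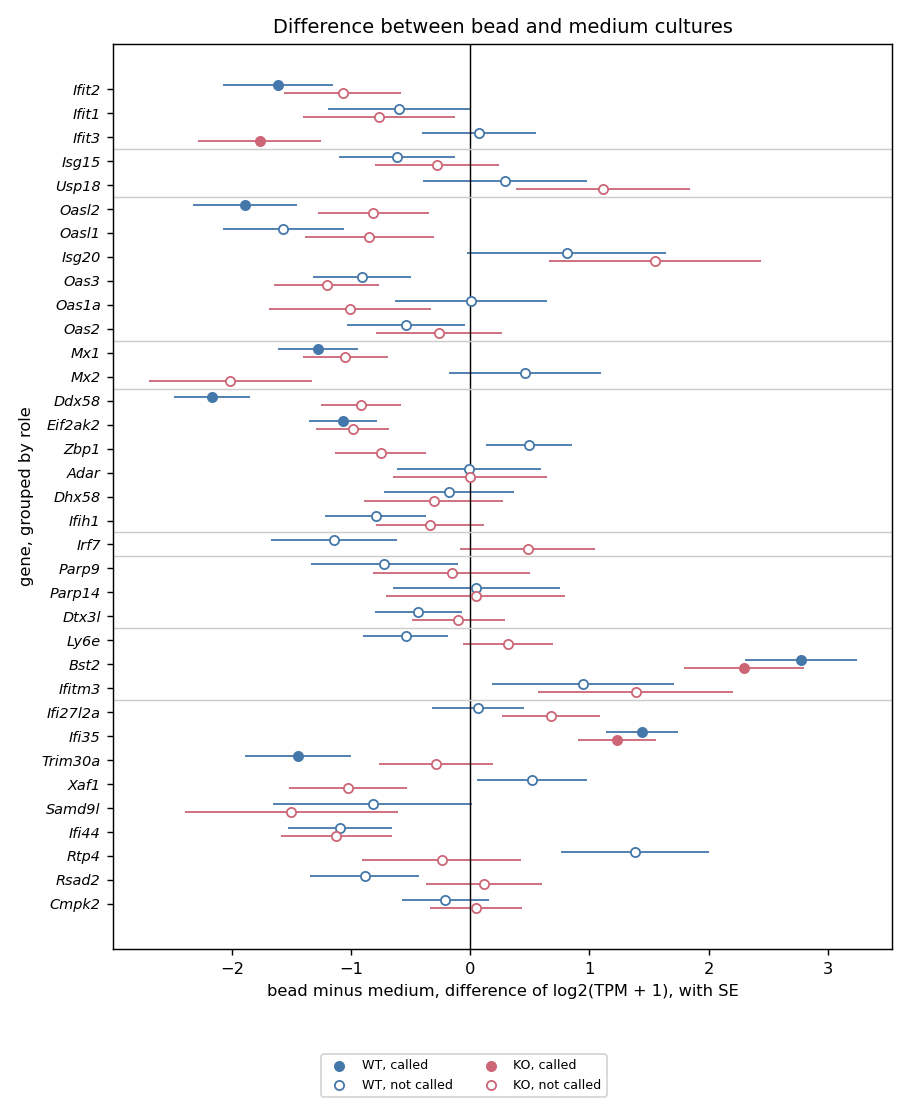
Difference between bead and medium cultures on the log2(TPM + 1) scale (x axis) for the 35 genes (rows, grouped by role) in WT (blue) and KO cells (red), with the SE as a bar and filled points for called genes. In WT cells Bst2 and Ifi35 are called to the right of 0 and 6 genes to the left, and in KO cells Bst2, Ifi35 and Ifit3 are called.

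In the ISG15 system, ISG15 is a ubiquitin-like tag and USP18 removes it and also blocks the receptor. Isg15 ranged from 3.19 to 21.1 TPM in medium and from 5.87 to 11.2 TPM with beads and passed no test. Usp18 was at 10.6, 8.65, 8.80 and 20.6 TPM in WT medium libraries and between 0 and 13.7 TPM, with a median of 3.16, in KO medium libraries. The WT bead libraries gave 22.7, 15.9 and 7.76 TPM and the KO bead libraries 8.79 and 5.53 TPM. In medium 5 of 6 KO libraries lay below every WT library, and the unnumbered KO library did not. The difference of -1.75 in medium (SE 0.58) was not called (limma adjusted p = 0.269) and became -0.70 without the 4 KO libraries richest in repeats. Usp18 shares exon sequence with Gm44148 on the opposite strand.

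Irf7 encodes the transcription factor that amplifies interferon-alpha production, and of the members it had the smallest p between the genotypes in medium. It was at 8.75, 6.23, 11.1 and 22.1 TPM in WT medium libraries and between 0.269 and 6.27 TPM, with a median of 2.36, in KO medium libraries. In bead cultures WT cells stood at 3.50, 5.84 and 4.01 TPM, and KO cells at 3.89 and 3.44 TPM. In medium only the unnumbered KO library reached the lowest WT library, and with beads the genotypes overlapped. The difference in medium was -1.83 (SE 0.45, unadjusted p = 0.000939 by limma) and was not called (limma adjusted p = 0.152), nor was it in any of 23 alternative fits (limma adjusted p from 0.0592). It was -1.58 when scaled to abundant genes and -1.001 without the 4 KO libraries richest in repeats. Irf7 shares exon sequence with Phrf1 on the opposite strand.

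Trim30a, a ubiquitin ligase that restrains Toll-like receptor signalling, was at 23.4, 51.6, 30.0 and 109 TPM in WT medium libraries and between 11.7 and 25.9 TPM, with a median of 13.9, in KO medium libraries. Bead-stimulated WT libraries held 20.7, 16.0 and 11.8 TPM, against 12.5 and 12.6 TPM for KO libraries. WT medium libraries were the highest, and only the lowest of them lay within the KO range. The bead difference in WT cells was -1.45 (SE 0.45, limma adjusted p = 0.0483). It held in 11 of 20 alternative fits and was lost without WT medium library 1 or 3 or without WT bead library 1, 2 or 3 (limma adjusted p = 0.0815 to 0.183), falling to -1.02 without WT medium library 3. The genotype difference in medium of -1.46 (SE 0.38) was not called (limma adjusted p = 0.177). Trim30d is a near-identical neighbour, and reads may be shared with it.

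Among the remaining effectors, Ifi35, a leucine zipper protein that is released in inflammation, rose with beads. It was at 20.5, 28.0, 22.04 and 15.7 TPM in WT medium libraries and between 9.27 and 21.2 TPM, with a median of 18.5, in KO medium libraries. After bead culture the WT values were 68.9, 53.1 and 56.4 TPM, and the KO values 42.6 and 38.3 TPM. Every bead library lay above every medium library, and with beads the WT libraries lay above the KO libraries. The rise was 1.44 in WT (SE 0.31, limma adjusted p = 0.00753) and 1.23 in KO cells (SE 0.33, limma adjusted p = 0.0305), and the genotype difference with beads, -0.54 (SE 0.37), was not called (limma adjusted p = 1.00). The WT call held in 17 of 20 alternative fits. The KO call held in 12 of 21 and was lost without KO bead library 4 or 5 (limma adjusted p = 0.250 and 0.197) and when scaled to abundant genes (0.75, limma adjusted p = 0.163). Ifi35 overlaps Gm11626 on the opposite strand.

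Ifi27l2a was at 416, 234, 177 and 331 TPM in WT medium libraries and between 105 and 323 TPM, with a median of 197, in KO medium libraries. With beads, WT libraries read 311, 248 and 308 TPM and KO libraries 284 and 291 TPM. The groups overlapped in every comparison. The difference in medium was -0.61 (SE 0.33, limma adjusted p = 0.505), and it was -0.23 when scaled to abundant genes.

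Rtp4 and Xaf1 were, with Zbp1, the members lower in KO than in WT cells with beads at an unadjusted p under 0.05. Rtp4, a chaperone of receptors that also restrains viral replication, was at 2.36, 3.33, 3.27 and 0 TPM in WT medium libraries and between 0 and 5.98 TPM, with a median of 1.67, in KO medium libraries. The WT bead libraries gave 7.28, 4.44 and 7.68 TPM and the KO bead libraries 0.846 and 1.57 TPM. Both KO bead libraries lay well under the WT bead libraries and below 2.06 TPM, the lower of the 90th percentiles of unused genes in the KO bead libraries. The genotype difference with beads was -1.75 (SE 0.74, limma adjusted p = 1.00). Rtp4 shares exon sequence with Gm45338 on the same strand, and reads may be shared with it.

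Xaf1, which promotes apoptosis, was at 6.11, 7.09, 9.46 and 9.98 TPM in WT medium libraries and between 3.21 and 20.2 TPM, with a median of 11.1, in KO medium libraries. In bead cultures WT cells stood at 9.86, 14.1 and 12.1 TPM, and KO cells at 6.11 and 3.08 TPM. The KO bead libraries lay below the WT bead libraries. The genotype difference with beads was -1.26 (SE 0.55, limma adjusted p = 1.00), and the difference between the bead responses was -1.55 (SE 0.68, limma adjusted p = 0.999). Neither was called in the alternative fits, 18 for the first and 28 for the second.

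The ADP-ribosyltransferases Parp9 and Parp14 and the ubiquitin ligase Dtx3l, the partner of PARP9, lie close together on chromosome 16. Parp9 ranged from 2.13 to 34.2 TPM, Parp14 from 0.454 to 15.7 TPM and Dtx3l from 2.42 to 12.7 TPM over all libraries, and none of the 3 passed a test in any comparison. Parp9 and Dtx3l share sequence on opposite strands, and Parp14 shares exon sequence with Gm49730 on the same strand. Samd9l, Ifi44, Rsad2 and Cmpk2 also passed no test, with means over the 15 libraries of 9.24, 4.77, 1.201 and 0.571 TPM. Rsad2, which encodes the antiviral enzyme viperin, never exceeded 2.87 TPM.

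**Figure D4:**
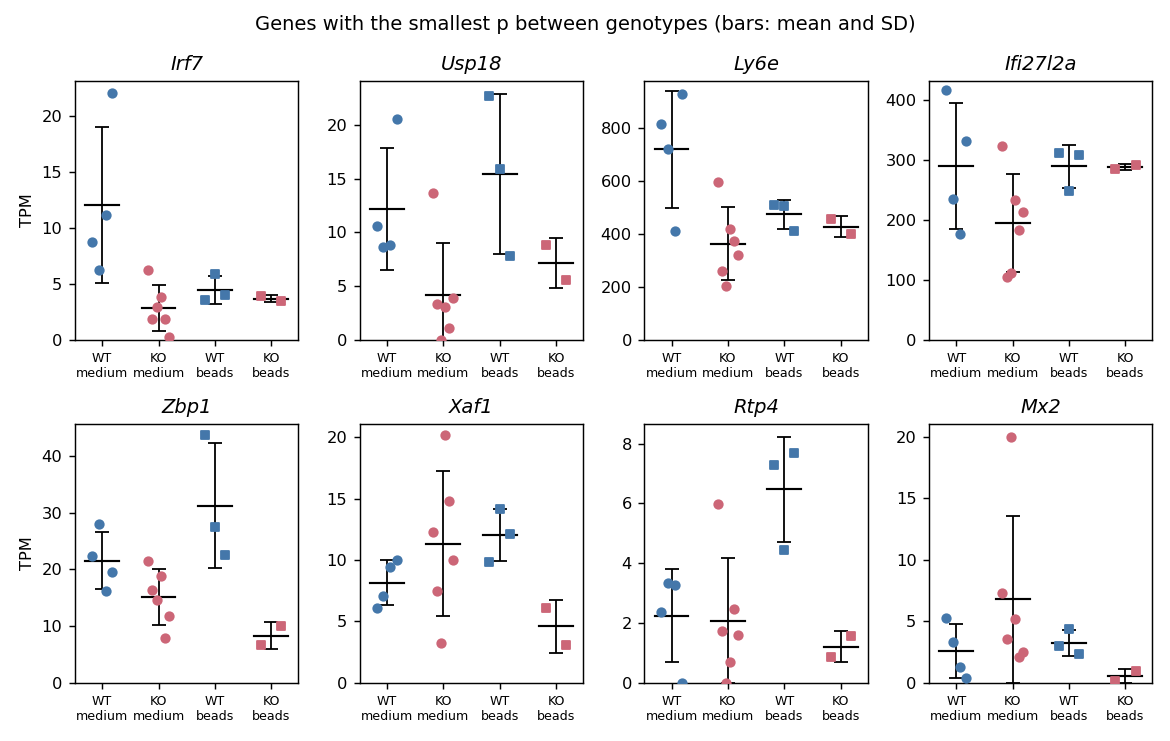
TPM of 8 genes in KO and WT cells, 1 point per library (n = 4, 6, 3 and 2 from left to right), with the mean as a line and the SD as a bar. Irf7, Usp18 and Ly6e are lower in most KO than WT libraries in medium, and Zbp1, Xaf1, Rtp4 and Mx2 are lower in both KO bead libraries than in any WT bead library.

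Between the genotypes, no member was called by limma in either condition. In medium 0 of 35 members were called, where 0.0734% of all genes were called in either direction. At an unadjusted p under 0.05, 1 member was higher in KO cells, beside 2.4% of all genes, and 4 were lower (Irf7, Trim30a, Ly6e and Usp18), beside 8.89%. No member had groups free of overlap, beside 1.56% of all genes in either direction. The members' median was -0.15, beside -0.11 over all genes, and it was 0.03 when scaled to abundant genes, beside 0.12 over all genes, and 0.18 without the 4 KO libraries richest in repeats, so its sign depended on the setting.

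With beads 0 of 35 members were called, where 1 gene in all, 0.00333% of those tested, was called. When only the bead groups were fitted, 0 members and 15 of all genes were called. Array weights gave 0 members and 19 of all genes. At an unadjusted p under 0.05, 1 member was higher in KO cells (Ddx58), beside 2.17% of all genes, and 3 were lower (Zbp1, Rtp4 and Xaf1), beside 0.72%. The groups did not overlap for 4 members higher and 7 lower, beside 17.4% and 8.02% of all genes. The members' median was -0.16 beside 0.13 over all genes. It stayed below 0 when scaled to abundant genes (-0.23 beside 0.07) and after quantile normalization (-0.34 beside -0.01). The differences of the bead responses were called for 0 members and for 0.00333% of all genes. At an unadjusted p under 0.05, 1 member was higher (Ddx58), beside 3.49% of all genes, and 4 were lower (Mx2, Ifit3, Zbp1 and Xaf1), beside 0.664%. The members' median was 0.26 beside 0.27 over all genes, and -0.11 beside -0.05 when scaled to abundant genes. All comparisons with the same cells share libraries, so these counts are not independent of each other.

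**Figure D5:**
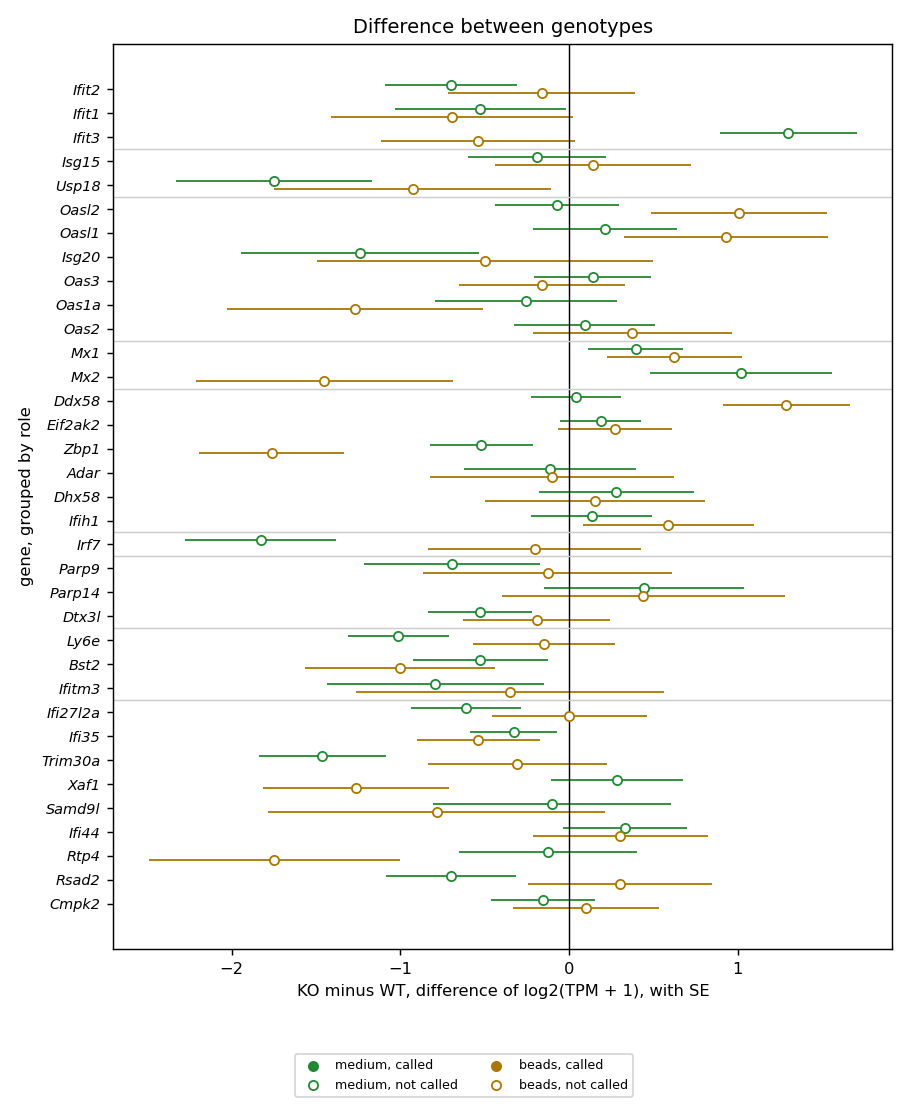
Difference between KO and WT cells on the log2(TPM + 1) scale (x axis) for the 35 genes (rows, grouped by role) in medium (green) and with beads (ochre), with the SE as a bar. All points are open because no gene was called, Irf7 lies farthest to the left in medium at -1.83, and with beads Zbp1 lies farthest to the left at -1.76 and Ddx58 farthest to the right at 1.29.

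Upstream of the set, the receptor chains and the ISGF3 parts IRF9 and STAT2 passed no test in any comparison. Irf9, the DNA-binding part of ISGF3, was at 20.4, 18.8, 16.0 and 25.2 TPM in WT medium libraries and between 6.47 and 12.2 TPM, with a median of 9.68, in KO medium libraries. After bead culture the WT values were 25.6, 19.0 and 31.7 TPM, and the KO values 14.9 and 12.8 TPM. Every KO library lay below every WT library in both conditions, and the differences of -1.01 (SE 0.26, limma adjusted p = 0.169) and -0.81 (SE 0.36, limma adjusted p = 1.00) were not called. Stat2 was low in every group, between 2.10 and 7.69 TPM. Ifnar1 was at 40.2 ± 7.41, 36.8 ± 12.1, 19.2 ± 3.29 and 25.2 ± 7.47 TPM in WT medium, KO medium, WT bead and KO bead libraries (n = 4, 6, 3 and 2), and its bead difference in WT cells, -1.02 (SE 0.34), was not called (limma adjusted p = 0.0636). Ifnar2 was at 22.6 ± 7.64, 19.2 ± 18.9, 18.0 ± 1.78 and 22.7 ± 1.21 TPM in the same groups and passed no test.

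Interferon genes were read at low and scattered levels. Of 18 ligand genes 7 had values in the tables of both conditions, and 0 of 7 were called in any comparison. Ifna16, an interferon-alpha gene, was the highest of them, with values up to 15.6 TPM (KO medium library 1). Ifnb1, which encodes interferon-beta, was at 0 in 3 of 4 WT medium libraries and at most 5.39 TPM in KO medium libraries, and with beads it was at most 1.58 TPM. Ifng, the type II interferon, was at most 6.72 TPM. A further 6 ligand genes had values in medium libraries only and 1 in bead libraries only, so they were not tested. Of these Ifna15 reached 15.2 TPM in WT medium library 3, Ifna13 reached 11.5 TPM in KO medium library 3 and Ifna14 reached 8.17 TPM in WT medium library 2, above the 90th percentiles of unused genes in those libraries (3.69, 5.61 and 4.49 TPM), while Ifna15 and Ifna14 were at 0 in most medium libraries.

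Of 6 negative regulators of the pathway, 3 were called higher with beads in WT and 3 in KO cells, beside 4.6% and 5.95% of all genes. Socs1, Ptpn6 and Ptpn2 were the genes called in both, and 1 of the 6 had a difference below 0 in each genotype. Socs1, which encodes an inhibitor of JAK kinases, was at 3.25, 7.64, 4.53 and 12.6 TPM in WT medium libraries and between 0 and 8.21 TPM, with a median of 0.758, in KO medium libraries. With beads, WT libraries read 83.0, 78.2 and 89.7 TPM and KO libraries 19.0 and 31.1 TPM. All bead libraries lay above all medium libraries, and the WT bead libraries above the KO bead libraries. The rise was 3.54 in WT (SE 0.67, limma adjusted p = 0.00396) and 3.51 in KO cells (SE 0.71, limma adjusted p = 0.00680), where it was lost without KO bead library 4 or 5 (limma adjusted p = 0.0566 and 0.138). The genotype difference with beads, -1.74 (SE 0.80), was not called (limma adjusted p = 1.00). The phosphatase genes Ptpn6 and Ptpn2 were called as well, with rises of 2.10 and 1.47 in WT cells (limma adjusted p = 0.00105 and 0.0103) and 3.32 and 1.37 in KO cells (limma adjusted p = 6.76e-05 and 0.0262), and Ptpn2 lost its KO call without either KO bead library (limma adjusted p = 0.182 and 0.226).

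Of 11 tested genes of the machinery that induces interferon, the adaptor gene Myd88 alone was called with beads, with rises of 1.66 in WT and 1.92 in KO cells (limma adjusted p = 0.0379 and 0.0327). Those calls were lost without WT medium library 2 or 3 or any WT bead library (limma adjusted p = 0.0829 to 0.147), and without KO medium library 1 or 5 or either KO bead library (limma adjusted p = 0.0518 to 0.227). The 3 genes of ISG15 conjugation passed no test. Uba7, the enzyme that activates ISG15, averaged 41.3 ± 25.8 TPM in WT medium libraries, against 13.4 ± 9.60 TPM in KO medium libraries (n = 4 and 6), a difference of -1.51 (SE 0.49) that was not called (limma adjusted p = 0.255).

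A list of 34 further interferon-stimulated genes also moved both ways with beads. In WT cells 4 were called higher and 5 lower, and in KO cells 1 higher and 3 lower, with medians of -0.81 and -0.43 beside -0.44 and -0.23 over all genes. Over all genes the called shares were 4.6% higher and 6.63% lower in WT cells and 5.95% higher and 2.15% lower in KO cells, and the 1 of 34 called higher in KO cells lay below that share. Ifit1bl1, a relative of Ifit1, Ifi209 and Ifi204 of the DNA-sensing Ifi200 family, Sp100 of nuclear bodies and Slfn1 were the genes that fell in WT cells, and Ifit1bl1, Ifi209 and Ifi204 also fell in KO cells. The genes that rose in WT cells were Gbp2, the chemokine gene Cxcl10, the mitochondrial exonuclease gene Pnpt1 and Cd274, which encodes PD-L1, and Cd274 also rose in KO cells. Ifit1bl1 had the largest fall in WT cells, with a difference of -2.50 (SE 0.47, limma adjusted p = 0.00371). Leaving out 1 library ended the WT calls of Cxcl10 (any numbered library, limma adjusted p = 0.0866 to 0.165), Pnpt1 (any but WT medium library 1, 0.0803 to 0.154), Cd274 (WT medium library 2 or WT bead library 2 or 3, 0.0510 to 0.0794) and Ifi204 (WT bead library 1 or 3, 0.0638 and 0.0714). It ended every KO call of this list without KO bead library 4 or 5 (limma adjusted p = 0.0584 to 0.385), and that of Ifit1bl1 also without KO medium library 2, 3, 4 or 5 (0.0627 to 0.0656). Between the genotypes 0 of 34 were called in either condition.

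The guanylate-binding proteins are GTPases that respond mainly to interferon-gamma. With beads all 8 had lower values in KO than in WT cells, with a median of -1.41 beside -0.16 for the members and 0.13 over all genes, and 7 of 8 had groups free of overlap, beside 8.02% of all genes that were lower without overlap. At an unadjusted p under 0.05 there were 5 of 8 lower, beside 0.72% of all genes, and 0 were called by limma. The spans of Gbp4, Gbp8 and Gbp9 overlap on the same strand of chromosome 5. Their reads may be shared, so the 8 genes are not independent of each other. Gbp2 was at 21.2, 14.1, 9.94 and 9.20 TPM in WT medium libraries and between 0.669 and 9.61 TPM, with a median of 4.85, in KO medium libraries. The WT bead libraries gave 137, 59.9 and 121 TPM and the KO bead libraries 8.01 and 14.8 TPM. These WT values lay far above all others, and the KO bead libraries lay between 0.669 and 21.2 TPM, where the medium libraries lay. Its genotype difference with beads was -3.08 (SE 0.69, limma adjusted p = 0.822), called with array weights (-3.13, limma adjusted p = 0.0301) and in none of the 17 other alternatives. Its rise with beads in WT cells was 2.86 (SE 0.58, limma adjusted p = 0.00576), and the response in KO cells, 1.26 (SE 0.62), was not called (limma adjusted p = 0.259), with a difference between the responses of -1.60 (SE 0.84, limma adjusted p = 0.999). In medium the 8 genes had a median of -0.79 between the genotypes, beside -0.15 for the members, and 0 were called. The difference between these lists was not tested.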

How the data were processed

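Smart-Seq2 libraries of sorted Treg cells were deposited by the authors as gene-level TPM, with 1 table per library. Per the submitters' processing notes, STAR, Salmon, DESeq2 and the genome build mm10 were used, with versions and roles not given in the sources used here. Per the labels' protocols, the cells were CD25+CD39+ and sorted as YFP+ or YFP-. Since TPM hold no read numbers, sequencing depth is unknown here and no counting interval can be given. The tables listed 36904 and 31785 genes, and 30949 were in both. Whether the 2 sets of tables were normalized together is not stated, and every comparison of beads with medium crosses them.

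Group means of log2(TPM + 1) were fitted with limma 3.58.1 (R 4.3.3, trend) over 15 libraries and 29989 genes that reached 1 TPM in 2 or more libraries, and p-values were Benjamini-Hochberg adjusted over all of them. Dock8 was compared by an exact permutation test. The fit was tested on simulated data. Python 3.11.15, pandas 2.3.3, numpy 2.4.6 and matplotlib 3.10.9 served for tables and figures. Promoter windows and sequences are from RefSeq (GRCm38.p6). The alternatives were pseudocounts of 0.1 and 5, other filters, 3 other scalings (abundant genes, quantiles, repeat-derived genes left out), only the groups compared, array weights, a replicate block and leaving out libraries. A covariate for unused genes and leaving out the 4 KO medium libraries in which repeat-derived genes exceeded 35% of TPM were added after seeing the data.

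The members and the gene lists were chosen with earlier results of these data known. Values in every library were given for members called in a comparison, for the 6 with the smallest p among members whose higher group averaged 5 TPM or more (4 for the difference between responses), and for the 5 with the highest mean. Of the other lists, called genes, Stat2, Irf9, Ifnar1, Ifnar2 and up to 2 genes with the smallest p were named, except that Ifnb1 and Ifng were chosen for what they encode. The result of 1 gene of those lists is not reported here.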

Additional observations from a re-analysis of the deposited data

Results flagged for a closer look

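A lone sample stood apart from the rest of its group in 5 of 36 groups of 4 or 6 libraries tested (named members), by the gap to its nearest neighbour against the range of the group. Chance flags about 1 in 20 groups. Ddx58 was at 111 TPM in KO medium library 5, where the other 5 libraries lay between 175 and 203 TPM. Mx2 was at 20.02 TPM in KO medium library 2, where the others lay between 2.09 and 7.33 TPM. Oas3 was at 21.8 TPM in KO medium library 3, where the others lay between 5.59 and 8.36 TPM. Usp18 was at 20.6 TPM in WT medium library 3, where the others lay between 8.65 and 10.6 TPM. Usp18 was also at 13.7 TPM in the unnumbered KO medium library, where the others lay between 0 and 3.86 TPM. The flagged values fell in 5 different libraries.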

How the results depend on the processing

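The number of members called with beads in KO cells, 3, became 8 when scaled to abundant genes, 6 when rescaled without repeat-derived genes, 7 with array weights, 1 with only the groups compared, 1 without the 4 KO libraries richest in repeats, 0 with the unused-gene covariate, and 0 to 4 when 1 library was left out. In WT cells the 8 members called became 5 after quantile normalization, 0 with the covariate and 3 to 8 when 1 library was left out. With the title number as a replicate block, members called were 4 in WT and 1 in KO cells, and 0 between the genotypes. Deviations from the group means over 3489 genes correlated at -0.150 to 0.0896 in the 11 same-numbered pairs. In pairs with different numbers they correlated at -0.130 to 0.185. Deviations from the means of so few libraries cannot show whether the numbers pair the samples. The members' median bead response in WT cells, -0.54, was -0.30 with a pseudocount of 5 and -0.066 after quantile normalization. In KO cells, -0.29, it was -0.73 scaled, -0.59 rescaled, -0.77 without the repeat-rich libraries, and -0.53 to -0.23 with 1 library left out. The median difference of the responses, 0.26, was -0.11 scaled, -0.086 after quantile normalization and -0.19 without the repeat-rich libraries. The median between the genotypes in medium, -0.15, was 0.18 without those libraries. Both of these medians thus turned sign. The Dock8 difference in medium, -0.67, was -0.31 scaled, -0.49 after quantile normalization and -0.85 to -0.46 with 1 library left out. The cause was not tested. With TPM alone, members near the level of unused genes cannot be told from 0, and with 2 KO bead libraries any leave-out leaves 1, which is assumed to vary like the other groups.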
